A study of Homo sapiens with 2 samples.

Results

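The genes described here are 10 feedback genes of the ERK pathway, DUSP4, DUSP5, DUSP6, SPRY1, SPRY2, SPRY4, SPRED1, SPRED2, PHLDA1 and ETV4. All 10 were read on both arrays, out of 11615 genes with usable signal and 19775 genes with a probe set. The list was chosen from the difference between these same arrays, so its values are given as a description and no test was made of them. The cells were AsPC-1, a human pancreatic ductal adenocarcinoma (PDAC) line, transfected with siRNA against the progesterone receptor gene PGR (si-PGR) or with control siRNA (Ctrl), and 1 array was hybridised per condition. Neither the labels nor the methods say which of the PGR siRNAs was used for the array. The purpose of the comparison was to find the genes whose mRNA differs when PGR is reduced.

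ERK is the last kinase of the RAS-RAF-MEK cascade, which growth factor receptors switch on and which is active in most pancreatic cancers. Active ERK induces genes whose products dampen the same cascade, so that their mRNA is widely read as a measure of its output. Dual-specificity phosphatases (DUSPs) remove phosphate from ERK, Sprouty (SPRY) and SPRED proteins act upstream on RAS and RAF, and ETV4 is a transcription factor that carries the signal to its targets.

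PGR itself gave no usable level. The intensities were 73.3 (si-PGR by label) and 16.1 (Ctrl by label) for 1 of its probe sets, and 4.80 and 1.53 for the other in the same order. All these intensities lie below 97.8, the median intensity over the probe sets used, which served as the signal floor, and their order runs against the labels. Each array is therefore called by its label, and every direction below rests on it. The trimmed mean intensity was 500.1 on both arrays. The ratio of 3-prime to 5-prime signal of the GAPDH control probe sets was 1.01 on the array labelled si-PGR and 0.99 on the array labelled Ctrl, and that of ACTB was 1.85 and 1.94. Of 8 ductal epithelial markers, 7 reached the floor on the array labelled si-PGR and 8 on the array labelled Ctrl, with CEACAM6 at 79.3 under si-PGR and 120 under Ctrl. KRT8, KRT18, KRT19, EPCAM and CDH1 were bright on both. KRT7 (182 under si-PGR and 189 under Ctrl) and MUC1 (174 under si-PGR and 122 under Ctrl) were dim on both, though past the floor. Fibroblast markers summed to 501 on the array labelled si-PGR and 470 on the array labelled Ctrl, with 1 of 5 past the floor under si-PGR and 2 of 5 under Ctrl. The fibroblast marker COL1A1 was past the floor on both arrays, at 299 on each, above KRT7 and MUC1. The summed values were 157 under si-PGR and 232 under Ctrl for 3 leukocyte markers, and 119 under si-PGR and 197 under Ctrl for 3 endothelial markers, each list with no marker past the floor under si-PGR and 1 under Ctrl. The markers past the floor under Ctrl alone included DCN of fibroblasts (60.3 under si-PGR and 115 under Ctrl) and PECAM1 of endothelium (93.2 under si-PGR and 163 under Ctrl). Acinar and endocrine markers were all below the floor. PTPRC, which defines leukocytes, and the endothelial CDH5 were below the floor on both arrays. The part of these marker differences in the results was not tested, and fewer cells with a transcript cannot be told apart from less of it per cell.

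On the array labelled si-PGR, 9 of the 10 feedback genes read lower than on the array labelled Ctrl and SPRY1 read higher. Of all genes past the floor, 46.8% were lower, and of the 8217 genes within the range of mean signal that the 10 genes span, 45.8% were lower. The median difference of the 10 genes was -0.20 on the log2 scale, against 0.02 over all genes past the floor and 0.02 over genes in the same range of signal. The genes were chosen from this contrast, so nothing is read from these counts. DUSP6 was the 1 gene at least 1.5-fold lower, a size reached by 4.72% of all genes and by 1.08% of genes in that range of signal. The other 9 genes lay between -0.29 and 0.14. With 1 array per condition there is no replicate error, and the only spread at hand is that between probe sets of the same gene, with an SD of 0.26 on the log2 scale over 5205 genes with more than 1 probe set past the floor on both arrays. Over 5709 genes with probe sets past the floor on at least 1 array, the SD was 0.40. DUSP6 differed by more than either SD when read by its brightest probe set, SPRY4 (-0.29) by more than the smaller and less than the larger, and the other 8 genes by less than both. Both SDs are taken within the same arrays and pool all levels of signal. They hold no variation between cultures, transfections or hybridisations, so they cannot gauge whether a difference would recur.

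**Figure D1:**
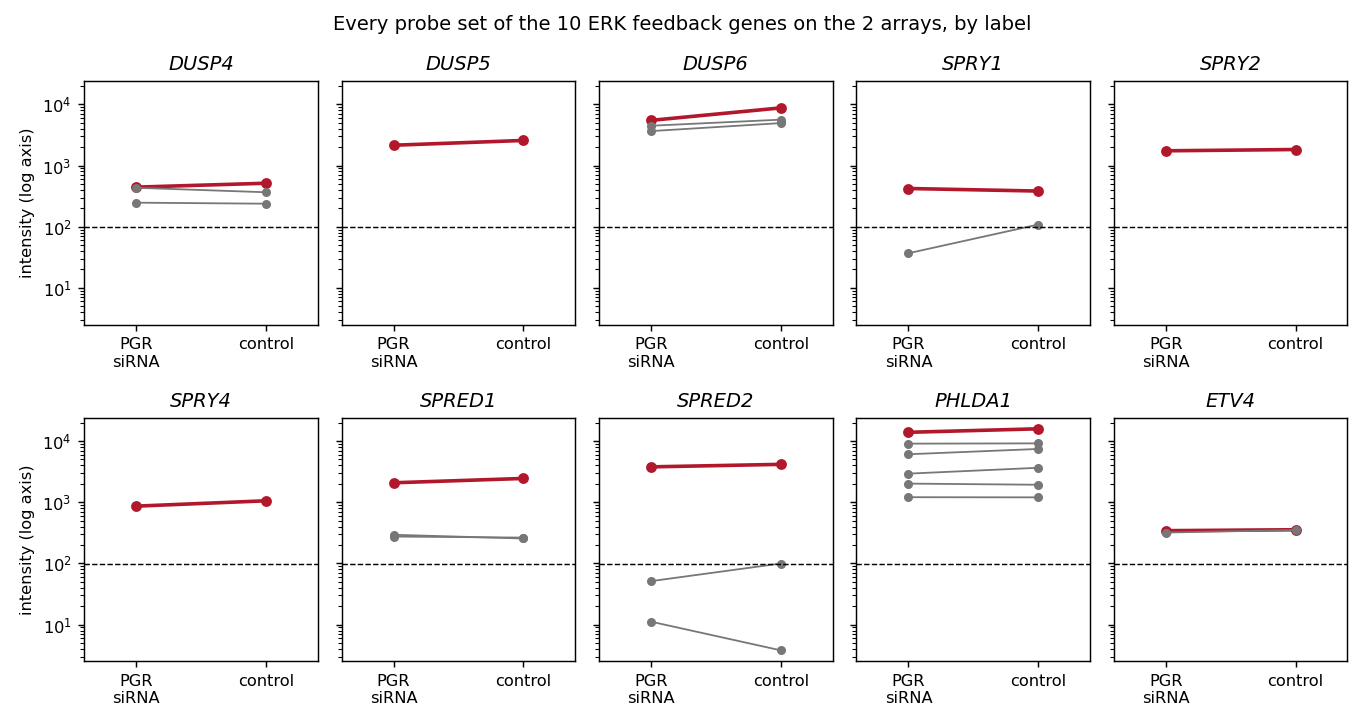
Intensity (log axis) of every probe set of the 10 genes on the array labelled si-PGR (PGR siRNA, left) and the array labelled Ctrl (control, right), with the brightest probe set of each gene in red, the others in grey and the signal floor of 97.8 as a dashed line. The red lines slope up to the control side in 9 panels, most steeply for DUSP6 (5472 against 8745), and down in that of SPRY1 (421 against 383).

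Among the phosphatases, DUSP6 is a cytoplasmic enzyme that acts on ERK with high specificity. Its brightest probe set read 5472 on the array labelled si-PGR and 8745 on the array labelled Ctrl, a log2 difference of -0.68, or 1.60-fold lower. The others read 3653 and 4936 (-0.43), and 4469 and 5618 (-0.33), with si-PGR first in each pair. Both of these carry the platform's mark for sequence shared among transcripts (_s_at), and the brightest does not. All 3 probe sets of DUSP6 were thus bright on both arrays and lower on the array labelled si-PGR, by amounts that differ among themselves. Of 1368 genes with 3 probe sets past the floor on both arrays, 224 had all 3 lower and 8 had all 3 at or below -0.33. That bound is the highest difference of DUSP6 itself, which is among the 8. DUSP6 was chosen from this contrast, so the count is a description and no test. Only the brightest probe set of DUSP6 passed 1.5-fold, and the mean of the 3 was -0.48, under that size.

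DUSP5 is a nuclear phosphatase specific for ERK, which it also holds in the nucleus. Its 1 probe set read 2146 on the array labelled si-PGR and 2570 on the array labelled Ctrl, or 1.20-fold lower (-0.26). DUSP4, a nuclear phosphatase that acts on ERK and on stress-activated MAP kinases, was not lower by all its probes. Its brightest probe set read 443 on the array labelled si-PGR and 514 on the array labelled Ctrl (-0.21), whereas the others read 433 and 366 (0.24), and 247 and 238 (0.06). The brightest probe set of DUSP4 carries the platform's mark for sequence shared among transcripts (_s_at). The direction of DUSP4 therefore turns with the probe set read, and the mean of all 3 was 0.03.

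Sprouty proteins are inducible inhibitors of signalling from receptor tyrosine kinases to RAS. SPRY4 read 863 on the array labelled si-PGR and 1056 on the array labelled Ctrl, or 1.22-fold lower (-0.29), by its 1 probe set, which carries the same mark. SPRY2, also with 1 probe set, read 1741 and 1827 (-0.07), a smaller difference than that of SPRY4. SPRY1 was the exception in direction. Its brightest probe set read 421 on the array labelled si-PGR and 383 on the array labelled Ctrl (0.14), and its other probe set read 36.9, below the floor, and 108, just above it. That second probe set is lower under si-PGR by at least 1.11-fold with the dim value raised to the floor, so the probe sets of SPRY1 ran in opposite directions.

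SPRED1 and SPRED2 belong to the Sprouty-related proteins. SPRED1 brings neurofibromin, which inactivates RAS, to the membrane. Its brightest probe set read 2079 on the array labelled si-PGR and 2447 on the array labelled Ctrl (-0.23), and its dimmer probe sets read 294 against 255 (0.20) and 275 against 264 (0.06). SPRED1, like DUSP4, was thus lower by its brightest probe set and not by the others. SPRED2 read 3784 on the array labelled si-PGR and 4158 on the array labelled Ctrl (-0.14). A dim SPRED2 probe set read 51.3, below the floor, against 99.7, or at least 1.02-fold lower, and the remaining one was below the floor on both arrays.

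PHLDA1, a protein with a pleckstrin homology-like domain that growth factors induce, had 6 probe sets, all past the floor on both arrays. The brightest read 13894 on the array labelled si-PGR and 15844 on the array labelled Ctrl (-0.19). The others lay between -0.32, for 2933 against 3654, and 0.06, for 2016 against 1931. Of the 6 probe sets of PHLDA1, 4 were lower and 2 higher. ETV4, an ETS transcription factor of the PEA3 group, read 343 on the array labelled si-PGR and 355 on the array labelled Ctrl (-0.05), and 320 against 352 by its other probe set (-0.14). Both ETV4 probe sets were lower by less than the SD between probe sets.

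**Figure D2:**
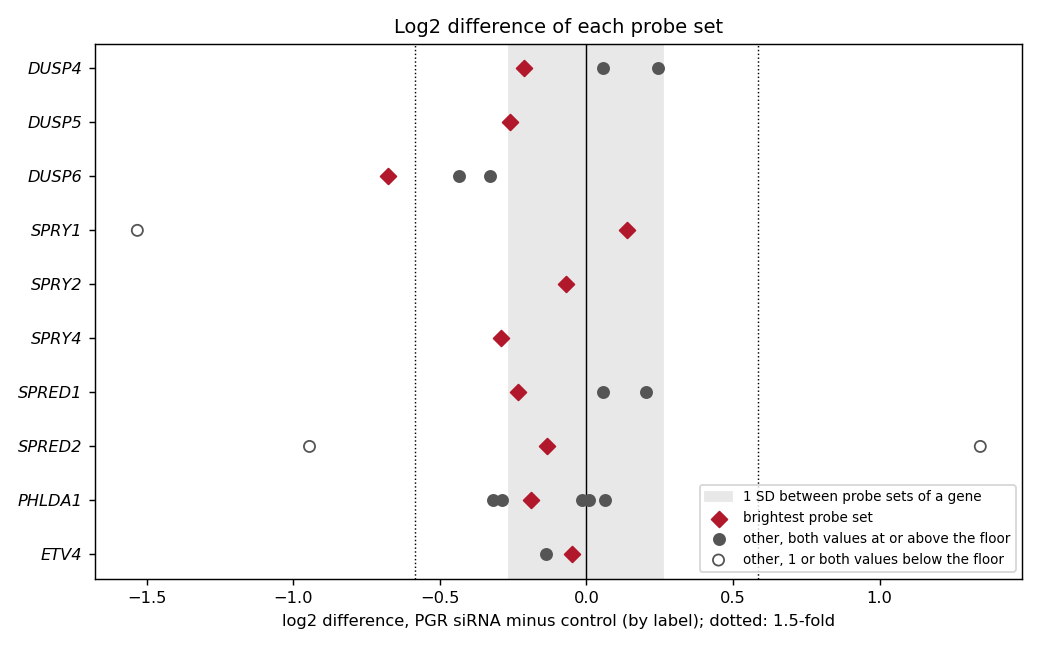
Log2 difference (array labelled si-PGR minus array labelled Ctrl) of each probe set of the 10 genes, with the brightest probe set of each gene as a red diamond, other probe sets as circles (open where 1 or both values are below the floor), 1 SD between probe sets of a gene as a grey band of 0.26 to either side of 0, and 1.5-fold as dotted lines. All 3 points of DUSP6 lie left of the band, and the open circles of SPRY1 and SPRED2 are the widest.

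Taken by probe set, 25 probe sets read the 10 genes and 24 of them reached the floor on at least 1 array. Of the 22 past the floor on both arrays, 15 were lower and 7 higher on the array labelled si-PGR, where 48.6% of all probe sets past the floor on both arrays were lower. The median of the 22 was -0.14, against 0.01 over all such probe sets. Counting every probe set past the floor on at least 1 array, all were lower in DUSP6, SPRED2 and ETV4, and they ran both ways in DUSP4, SPRY1, SPRED1 and PHLDA1, while DUSP5, SPRY2 and SPRY4 had a single one. The second such probe set of SPRED2 and of SPRY1 had its si-PGR value below the floor. At the signal of DUSP6, within 0.5 of its mean on the log2 scale, 0.396% of 758 genes were as low or lower. The share was 8.18% for DUSP5, 8.33% for SPRY4, 10.2% for SPRED1, 4.58% for PHLDA1, 18.3% for SPRED2, 20.2% for DUSP4, 32.2% for SPRY2, 41.5% for ETV4 and 66.5% for SPRY1, each among the genes near its own signal. By these shares ETV4, SPRY2 and SPRY1 lay in the middle of the genes of like brightness, and DUSP6 near their lower end. The genes were chosen from this contrast and each share counts the gene itself, so the shares describe position only and are no test.

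**Figure D3:**
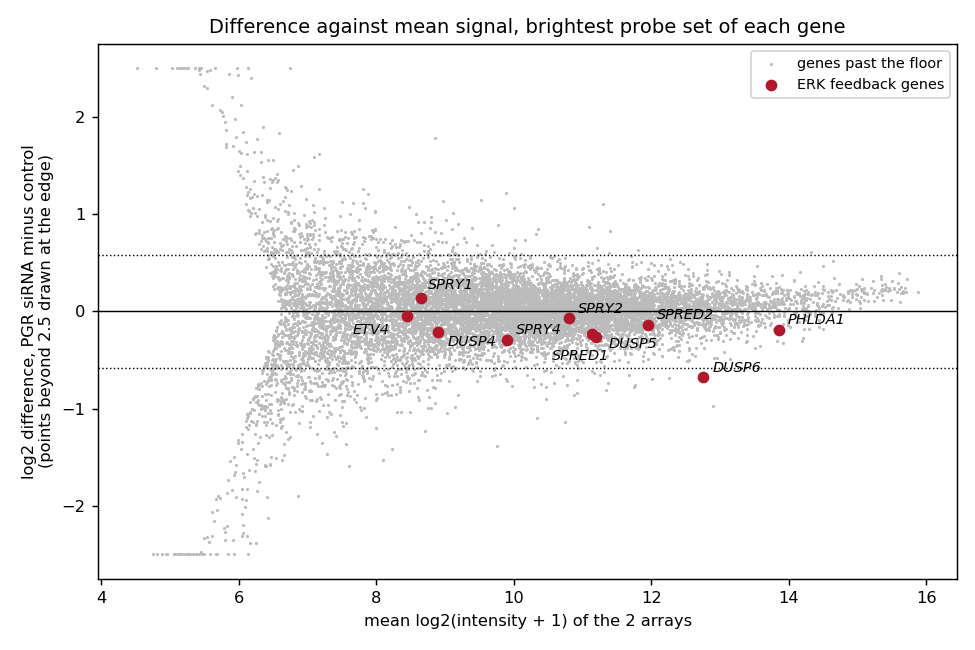
Log2 difference (array labelled si-PGR minus array labelled Ctrl) against the mean log2(intensity + 1) of the 2 arrays for each of the 11615 genes past the floor (grey) and the 10 feedback genes (red), each read by its brightest probe set, with 1.5-fold as dotted lines. DUSP6, at -0.68, is the 1 red point beyond the lower dotted line, and the grey scatter narrows as signal increases.

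The bases before the start sites of these genes were searched for motifs of factors that act in the pathway, as a description of their sequence. The 250 bases upstream of the start in the RefSeq annotation of GRCh38.p14 were used for 7 genes, all but DUSP4, DUSP5 and ETV4. The string CCGGAA, called the ETS core here, was on either strand in 2 of the 7 (SPRY2 and PHLDA1) and in 14.8% of 27305 promoters. It is a narrow form of the ETS site, and other forms were not searched, so genes without it may still hold an ETS site. The AP-1 motif TGANTCA was in none of the 7 and in 6.60% of all, the CRE motif TGACGTCA in none and in 1.76%, and its core TGACG, which lies within the full CRE, in SPRY2 and SPRY4 and in 21.7%. The SP1 motif GGGCGG was in SPRY2, SPRY4, SPRED1 and PHLDA1, 4 of the 7, and in 42.3% of all. No match was found to TGAATGAA, a form of the site bound by the repressor CIC (1.43% of all). Other forms of the CIC site were not searched, so a gene without this match may still hold a CIC site. There was also no match to the steroid receptor palindrome, the kind of element that PGR binds (0.33%), to TATAAA (11.1%) or to the CArG box of SRF (1.14%). All motifs were read on both strands. Below are the upstream bases of DUSP6 and SPRY4, the genes with the lowest differences, and of SPRY2 and PHLDA1, which hold the ETS core, with every motif match in capitals. Positions count back from the start site at -1.
DUSP6 (chr12:89352502-89352751, minus strand, no match): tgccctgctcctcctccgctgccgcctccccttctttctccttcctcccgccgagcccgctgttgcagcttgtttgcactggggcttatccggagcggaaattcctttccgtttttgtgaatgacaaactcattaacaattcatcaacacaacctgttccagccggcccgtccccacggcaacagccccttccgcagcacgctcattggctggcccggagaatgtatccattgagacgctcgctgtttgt
SPRY4 (chr5:142324248-142324497, minus strand, SP1 from -183 to -178 and CRE core from -68 to -64): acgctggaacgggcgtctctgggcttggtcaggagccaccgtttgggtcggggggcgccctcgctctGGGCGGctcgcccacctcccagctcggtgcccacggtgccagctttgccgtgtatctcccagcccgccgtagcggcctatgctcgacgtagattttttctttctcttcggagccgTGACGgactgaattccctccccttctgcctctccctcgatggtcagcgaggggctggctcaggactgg
SPRY2 (chr13:80341127-80341376, minus strand, CRE core from -190 to -186, ETS core from -142 to -137, SP1 from -102 to -97 and from -42 to -37): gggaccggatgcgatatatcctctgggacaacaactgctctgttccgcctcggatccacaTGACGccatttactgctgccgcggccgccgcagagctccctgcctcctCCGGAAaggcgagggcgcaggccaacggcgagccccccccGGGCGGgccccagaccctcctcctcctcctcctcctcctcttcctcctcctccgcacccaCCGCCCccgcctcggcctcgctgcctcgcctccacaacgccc
PHLDA1 (chr12:76031777-76032026, minus strand, ETS core from -89 to -84 and SP1 from -36 to -31): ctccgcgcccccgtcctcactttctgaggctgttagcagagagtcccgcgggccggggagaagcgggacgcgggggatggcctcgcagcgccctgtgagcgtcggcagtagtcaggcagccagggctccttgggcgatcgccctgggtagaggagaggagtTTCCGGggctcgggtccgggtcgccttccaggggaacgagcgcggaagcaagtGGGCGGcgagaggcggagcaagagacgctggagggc

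DUSP6, the lowest of the 10 genes, held no match to the motifs as searched in this window, and SPRY2, at -0.07, held matches to 3 of them. GC content of the 7 stretches ran from 45.6% in SPRY1 to 78.4% in SPRED1 with a median of 65.6%, against a median of 58% over all promoters.

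Other genes of the pathway were read from lists. Like the 10 genes, these lists were chosen with earlier results of these data known, so their counts are given as a description. Of the genes that complete a MAPK activity score together with several of the 10 genes, 3 of 4 passed the floor. CCND1, a cyclin that drives entry to S phase, read 2358 on the array labelled si-PGR and 2764 on the array labelled Ctrl (-0.23) and ETV5, the closest relative of ETV4 among them, 3553 and 3476 (0.03), although ETV5 had other probe sets down to -0.50. The other probe set of CCND1 past the floor was at -0.60. The median of the 3 genes was -0.20, or -0.41, the value of ETV5, when probe sets were averaged and -0.09 over 4 genes with no filter. Of 6 further MAP kinase phosphatases past the floor, all 6 were lower by their brightest probe sets, with a median of -0.11, where 46.8% of all genes were lower. When probe sets were averaged, 3 of the 6 were lower, where 49.7% of all genes were, and DUSP8 (0.40), DUSP16 (0.25) and DUSP10 (0.01) were above 0. DUSP2, which acts in the nucleus, was the lowest (127 against 168, or -0.40) and DUSP8, which acts on stress kinases, the closest to 0 (-0.03, with another probe set at 0.83). None of these genes passed 1.5-fold by its brightest probe set.

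Feedback inhibitors outside the Sprouty and DUSP families were lower in 6 of 6 past the floor by their brightest probe sets (46.8% of all genes), with a median of -0.25, and in 4 of 6 when probe sets were averaged (49.7% of all genes), with CBL at 0.39 and SOCS3 at 0.13. SOCS3, a suppressor of cytokine signalling, passed the floor on the array labelled Ctrl alone (92.3 against 115). TOB1, an antiproliferative protein that ERK phosphorylates, read 4682 on the array labelled si-PGR and 6232 on the array labelled Ctrl (-0.41, with another probe set at -0.01), and CBL, a ubiquitin ligase of receptor tyrosine kinases, 1308 and 1426 (-0.13, with another probe set at 2.68). Immediate-early genes, which ERK induces first, were lower in 12 of 15 (46.8% of all genes), with a median of -0.14, and also in 12 of 15 when probe sets were averaged. Of these, the AP-1 subunit FOSL2 was the lowest (1456 against 1924, or -0.40), with all 5 of its probe sets past the floor between -0.40 and -0.26, and SRF the highest (0.33, with another probe set at -1.17). No gene of these 2 lists passed 1.5-fold by its brightest probe set.

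The list of the ERK cascade held genes upstream of ERK, the ERK gene MAPK3, and RPS6KA1 and RPS6KA3, which encode kinases downstream of it. Components of the cascade had a median of -0.05 over 14 genes, 9 lower (46.8% of all genes) and 5 higher. When the probe sets of each gene were averaged, the median was 0.02, with 7 lower (49.7% of all genes). MAPK3, which encodes ERK1, read 299 on the array labelled si-PGR and 467 on the array labelled Ctrl by its 1 probe set past the floor, 1.56-fold lower (-0.64). That probe set of MAPK3 carries the platform's mark for probes that may also match other genes (_x_at), so its difference may not be that of MAPK3 alone. HRAS was the highest at 0.30. ERBB receptors and their ligands had a median of -0.17 over 8 genes, 6 of them lower (46.8% of all genes). This median turned to 0.07, with 3 lower (49.7% of all genes), when probe sets were averaged. The ligand TGFA read 1447 against 2599 (-0.84, its probe sets ranging to 0.03), and the ligand EGF read 213 against 109 (0.96, or 1.96-fold higher), where 3.65% of all genes were at least 1.5-fold higher. FGF receptors and MET, with a median of 0.29 over 5 genes, or 0.16 when probe sets were averaged, had FGFR1 highest (874 against 617, or 0.50, its probe sets ranging down to -0.35) and MET lowest (-0.28, its probe sets ranging up to 0.44). The difference between the arrays in these receptors and ligands thus had no common direction.

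Transcription factors of the ETS family with CIC, the repressor of ETV genes, had a median of -0.26 over 6 genes. Of these, 5 were lower (46.8% of all genes), or 3 when probe sets were averaged (49.7% of all genes). With no filter on low values the median was -0.14 over 7 genes. CIC itself read 261 on the array labelled si-PGR and 369 on the array labelled Ctrl (-0.50), and ETS2 was the highest at 0.09. Among relatives of the 10 genes, the median was 0.01 over 5 genes, with 2 lower (46.8% of all genes) and 3 higher. SPRED3 read 222 on the array labelled si-PGR and 91.9, below the floor, on the array labelled Ctrl, at least 2.27-fold higher, and PHLDA3 was the lowest at -0.10. When probe sets were averaged, the median of the relatives was -0.41. This is the value of ETV5, the same gene that set the averaged median of the MAPK activity score list.

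**Figure D4:**
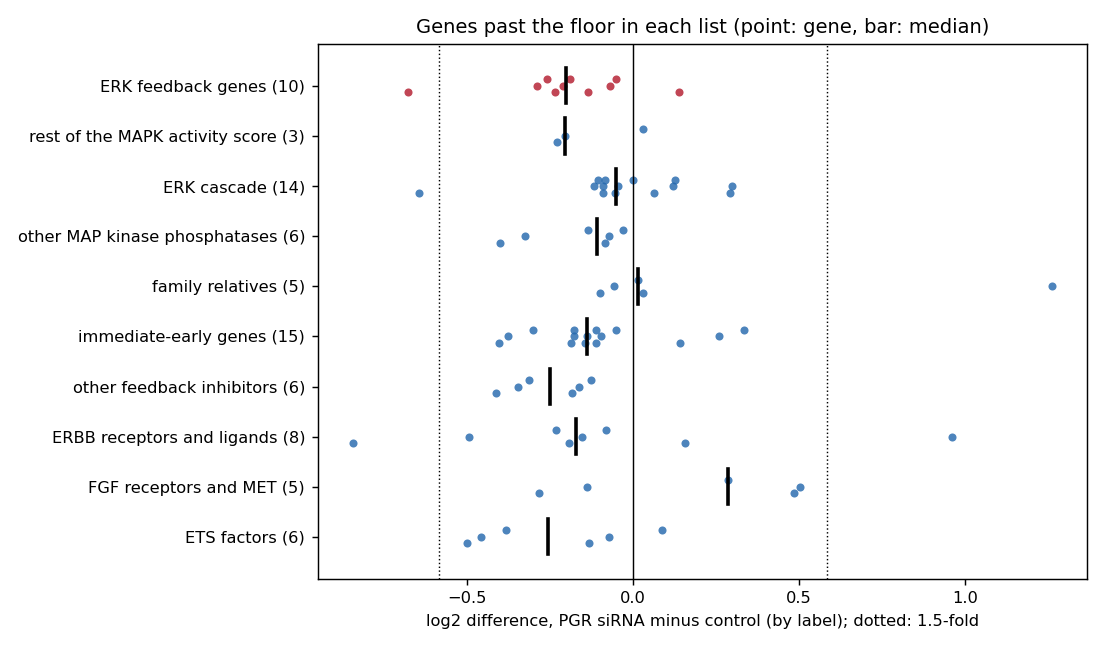
Log2 difference (array labelled si-PGR minus array labelled Ctrl) of the genes past the floor in each pathway list, with 1 point per gene, the number of genes in brackets, the median of each list as a black bar and 1.5-fold as dotted lines. The medians of the feedback genes (-0.20), other feedback inhibitors (-0.25) and immediate-early genes (-0.14) lie left of 0 and that of FGF receptors and MET (0.29) right of it.

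How a gene with several probe sets was read changed the direction of 4 of the 10 genes. When all probe sets of a gene were averaged, DUSP4 was 0.03, SPRED1 0.01 and SPRED2 0.09, the last with a probe set below the floor on both arrays in the mean, and SPRY1 turned to -0.70 with its dim probe set included. The number of genes lower was then 7 of 10, where 49.7% of all genes were lower, and their median was -0.11. DUSP6 no longer passed 1.5-fold, and SPRY1 did so only through its dim probe set, whose si-PGR value is below the floor. That probe set was lower by at least 1.11-fold, so SPRY1 is not shown to pass 1.5-fold. DUSP5, DUSP6, SPRY2, SPRY4 and PHLDA1 were lower under every alternative in which they were read. The filters and floors among these alternatives could drop a gene but not change its value.

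**Figure D5:**
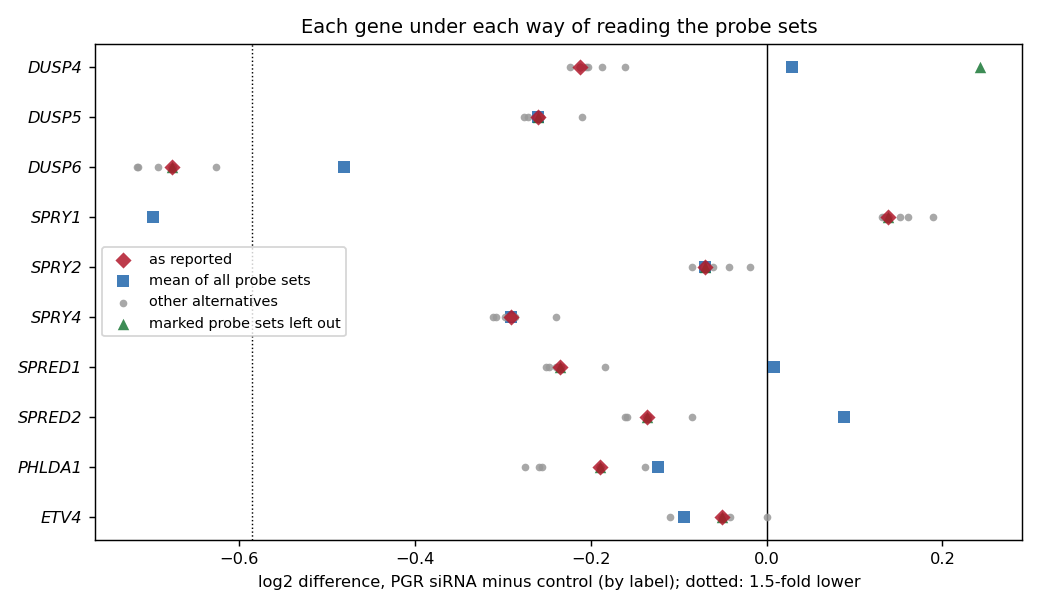
Log2 difference (array labelled si-PGR minus array labelled Ctrl) of each of the 10 genes as reported (red diamonds), with all probe sets of the gene averaged (blue squares), with marked probe sets left out (green triangles) and under other scalings, offsets and filters (grey circles), with 1.5-fold lower as a dotted line. The blue squares of DUSP4, SPRED1 and SPRED2 lie right of 0, that of SPRY1 lies at -0.70, and the points of DUSP6 run from -0.72 to -0.48.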

How the data were processed

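Total RNA of AsPC-1 cells was labelled with biotin and hybridised to 3' expression arrays, 1 for si-PGR and 1 for Ctrl. Intensity values on a linear scale were deposited, 1 per probe set and array. Equal trimmed means (2% removed at each end) show that they had been scaled to a common level. The summary algorithm and background correction are not given in the sources used here. This scaling leaves a trend with signal in place. No detection calls were used.

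Differences were taken as log2(intensity + 1), si-PGR minus Ctrl by label. Of 54675 probe sets, 41097 had 1 gene symbol in the platform annotation, 1801 several and 11777 none. Probe sets with several or no symbols and 6 control probe sets were left out. Of the 41091 used, 41037 matched RefSeq (GRCh38.p14) by gene identifier. Each gene was read by its brightest probe set, and counted if either value reached the floor of 97.8, the median of all values used. With 2 arrays no test, p-value or error was possible, and their number limits the precision.

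The 10 genes and the lists were chosen with earlier results of these data known. Named are the 10 genes, PGR and, of each pathway list, the highest and lowest gene and any past 1.5-fold. Cell type markers, and list genes that turned when probe sets were averaged, were named after their values were seen. Alternatives were other readings of probe sets, scalings (median, quantile, loess with a span of 0.7, a running median of 201 genes), an offset of 16, other floors and folds. Leaving out marked probe sets or DUSP6 was added after seeing the data. The calculation was tested on simulated data. Python 3.11.15, numpy 2.4.6, pandas 2.3.3, statsmodels 0.14.6 and matplotlib 3.10.9 were used.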

Additional observations from a re-analysis of the deposited data

How the results depend on the processing

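The median difference of the 10 genes stayed below 0 under all 14 alternatives, from -0.24 to -0.11, and was -0.19 without DUSP6. The count of genes at least 1.5-fold lower was 0 at 2-fold and 3 when probe sets were counted, 2 of which (of SPRY1 and SPRED2) had the si-PGR value below the floor. Averaging the probe sets of each gene put the median of the relatives at -0.41, the value of ETV5, which also belongs to the MAPK activity score list. Besides the genes that turned with that average, DUSP4 was 0.24 with marked probe sets left out and ETV4 was 0.00014 with median centring, which raised the median of all genes to 0.07. With the floor at the 75th percentile, DUSP4, SPRY1 and ETV4 dropped out. No paired analysis was possible because there was 1 array per condition, and for the same reason no array could be left out. Differences below the floor have no size.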
